A study of Rattus norvegicus with 3 samples.

Results

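Transcripts of the nuclear receptor superfamily were measured in isolated renal proximal tubules of the rat. The set comprised 38 genes, namely the superfamily without Vdr, Hnf4a, Nr1d1, Nr1d2, Nr3c1 and Nr3c2, and took in every probe set annotated to exactly 1 gene symbol of that list. Such probe sets numbered 62 and named 36 of the 38 genes, among 14217 named genes in all. Nr2e3 and Nr6a1 had no probe set named here and were not analysed.

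The tubules came from male Sprague-Dawley rats, 7 to 8 weeks of age, and formed 1 group of 3 preparations, each hybridised to 1 array, with no control group. All animals had received 250 units of heparin into the abdominal cavity 30 min before decapitation, and all tissue was exposed to collagenase, by perfusion at 2 mg/ml and then during 20 min of digestion, before separation on 42.5% Percoll. The labels do not say how many animals made up a preparation or whether the preparations came from different animals, so the spread reported here may be technical.

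Nuclear receptors are transcription factors that bind short DNA motifs through a zinc-finger domain, and most are switched by a small fat-soluble ligand such as a bile acid, an oxysterol, a retinoid, a thyroid hormone or a steroid. Many bind DNA as a pair with a retinoid X receptor (RXR), so that RXR supply is shared between pathways. In kidney epithelium they are known for control of fatty acid oxidation, mitochondrial content, bile acid and drug transport and hormone response.

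Signals are linear probe-set intensities and sets of 3 values follow the order of arrays 1, 2 and 3. The median of all non-control probe sets was 37.1, 37.4 and 34.9, and the 75th percentile lay between 167 and 181. Each probe set binds with its own strength, so a higher signal of one gene than of another is not read as more transcript. Genes were set against lines drawn on each array (the median, the 75th percentile and a line from olfactory receptor genes), and the probe set of highest mean signal stood for its gene. Ranges and SDs in log2 units are of log2(signal + 16) after centring on each array's median, a scale that compresses low signals. All 6 markers of proximal tubule cells lay above the median, Slc34a1 at 9616 ± 380.3 and Lrp2 at 8549.6 ± 569.6 (SD, n = 3 here and throughout). Markers of other cells were set against the same line, which 61.0% of all named genes exceeded on all 3 arrays. All 5 thick ascending limb markers (summed signal 10423 to 12538 per array) and all 4 measured endothelial markers (632 to 1103) exceeded it on all 3 arrays. So did 2 of 3 distal convoluted tubule, 2 of 4 principal cell, 1 of 4 intercalated cell, 2 of 5 macrophage, 1 of 5 stromal and 1 of 3 podocyte markers. No adipocyte marker of 5 did. The podocyte count was 2 without array 3 and 0 when probe sets were averaged. The signals are from bulk tissue, so fewer cells of a type and less RNA per cell cannot be told apart.

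Of the 36 measured receptors, 21 (58.3%) exceeded the median of every array, against 61.0% of all named genes, a share near the background. The other 15 (41.7%) lay below it on all 3 arrays, against 32.1% of all named genes, so that no receptor changed sides between preparations. Ppara, just inside that line, gave 37.9, 66.0 and 35.5. Nr4a2, below it, gave 25.3, 25.6 and 29.9, and the point nearest under the line was Rarg on array 2, at 35.7. As a second yardstick, the 95th percentile of 18 olfactory receptor-type genes was 16.7, 22.96 and 19.7, and 22 receptors (61.1%) exceeded it on all 3 arrays, against 67.9% of all named genes. Above the 75th percentile on all 3 arrays were 10 receptors (27.8%), against 36.4% of all named genes. The median percentile of the receptors was 42.7 ± 0.174 over the 3 arrays, where all named genes have 50. The working name of proximal tubule receptors thus takes in 15 genes whose signal exceeded the median of no array.

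**Figure D1:**
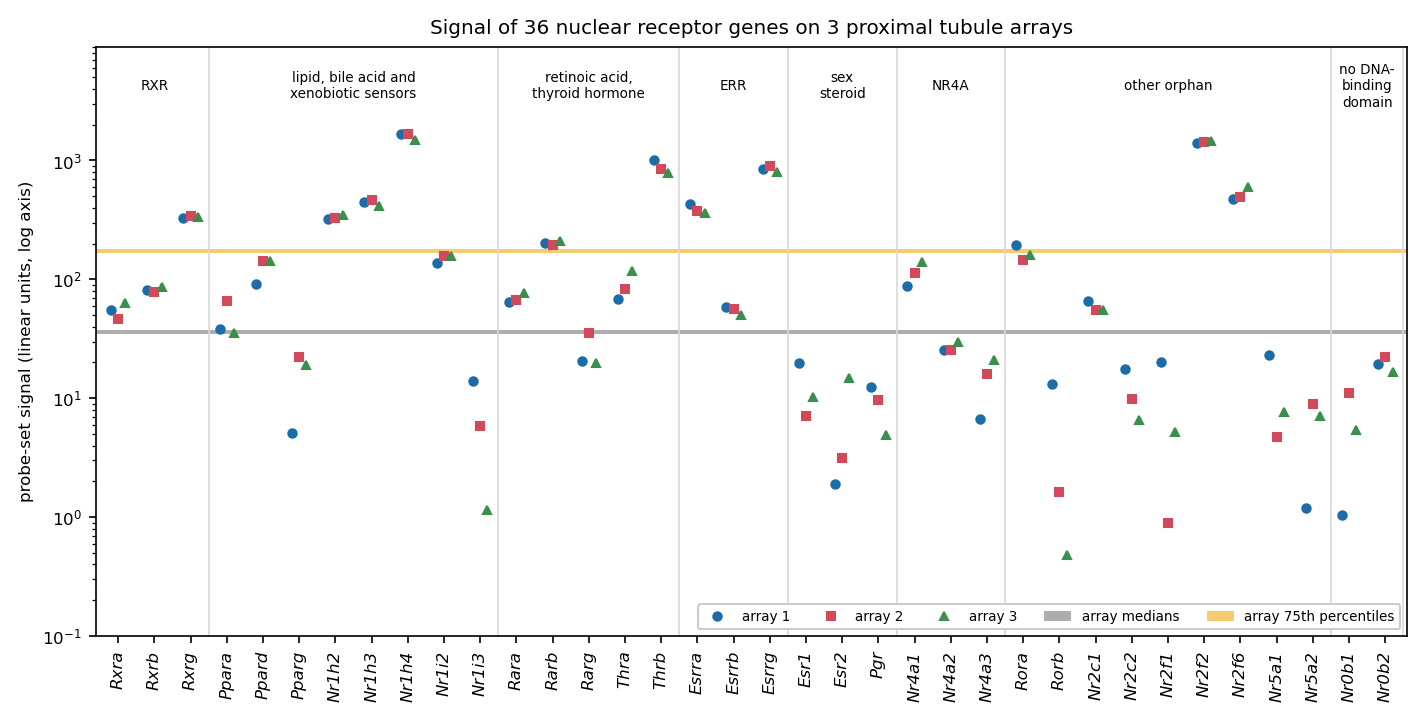
Signal of each of the 36 measured receptor genes (x axis, grouped by role) on each array (points; y axis, linear signal units on a log axis), from the probe set of highest mean signal, with grey and yellow bands for the range of the array medians and 75th percentiles. All points of 21 genes exceed the median of their own array and all points of 15 genes lie under it, with 1 Ppara and 1 Rarg point inside the band, and levels are not comparable between genes.

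Among the shared RXR partners, all 3 genes lay above the median on all arrays, against 61.0% of all named genes. Rxra, the isoform best known from liver and kidney epithelium, gave 55.2, 46.1 and 63.4. Rxrb, a broadly expressed isoform, gave 81.8, 78.2 and 85.9. Rxrg, known mainly from muscle and brain, gave 327, 341 and 337 with one probe set and 27.7, 36.1 and 16.1 with the other, which lay below the median on every array. Only 1 of the 2 Rxrg probe sets thus placed the gene above the line.

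Of the 8 receptors for lipids, bile acids and xenobiotics, 6 lay above the median on all 3 arrays, against 61.0% of all named genes. Nr1h4, the bile acid receptor FXR, gave 1658, 1657 and 1489 (mean 1601 ± 97.2), with a range of 0.090 log2 units on the centred scale and 0.15 for plain log2 signals. Nr1h3 and Nr1h2, the oxysterol receptors LXR-alpha and LXR-beta, gave 444, 462 and 412 and 324, 329 and 349. A second Nr1h2 probe set gave 2.39, 0.956 and 7.63. Nr1i2, the xenobiotic receptor PXR, gave 138, 157 and 157, above the median but below the 75th percentile on every array. Nr1i3, the related receptor CAR of liver, gave 13.9, 5.85 and 1.15, below the median and below the olfactory yardstick on every array.

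The fatty acid receptors differed in where they lay. Ppard, the broadly expressed isoform, gave 90.8, 143 and 144, lowest on array 1, and its second probe set gave 23.7, 28.8 and 31.4, below the median. Ppara, the receptor of fasting and fibrate drugs, exceeded the array median by a factor of 1.02 at its least and was highest on array 2. Pparg, the adipocyte isoform, gave 5.15, 22.1 and 18.9, and no adipocyte marker lay above the median on all 3 arrays.

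Known target genes of these receptors were read beside them. Of 24 measured PPAR targets, 19 lay above the median on all 3 arrays and 18 above the 75th percentile. The shares of all named genes were 61.0% and 36.4%. The list had a median percentile of 90.8. Acadm of mitochondrial fatty acid oxidation gave 5063, 5181 and 4611, and Cyp4a1, a fatty acid hydroxylase, gave 4339.8, 3440.2 and 3359. Cyp4a8, of the same enzyme family, gave 4323, 1941 and 4316, a range of 1.22 log2 units with array 2 lowest. Array 2 was also lowest for the summed signal of the PPAR target list (39381, 32113 and 35379). The same held for the summed proximal tubule markers (37307, 32641.5 and 35378) and thick ascending limb markers (12538, 10423 and 11061). All named genes also had their lowest median deviation from their own means on array 2 (0.038, -0.057 and 0.019 log2 units). A low array 2 was thus not particular to these lists. It did not hold for every list, the endothelial marker sum being lowest on array 1. Fabp1, the liver fatty acid carrier, gave 1.65, 14.5 and 2.70.

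Fewer of the other targets passed the line. Of 7 measured FXR targets, 3 lay above the median, namely Slc51a, a basolateral bile acid carrier subunit, at 726, 719 and 557, Sdc1, a cell-surface proteoglycan gene, at 379.9, 259 and 244, and the export pump gene Abcc2 at 159, 116 and 131. Fgf19, the intestinal hormone gene induced by bile acids, gave 2.21, 0.647 and 1.74. Of 13 LXR targets, 6 lay above, among them Apoe, the lipid carrier protein gene, at 3589, 4080.5 and 4374, and Lpcat3, a phospholipid remodelling enzyme, at 829.7, 699 and 824. Abcg5, a sterol transporter subunit, had the lowest mean of that list and gave 9.19, 11.3 and 0.665. Of 11 PXR and CAR targets, 3 lay above, namely Por, the electron donor of P450 enzymes, at 1211, 705 and 953, Alas1, the first enzyme of haem synthesis, at 504, 400.3 and 377, and Abcb1a, a drug export pump, at 116, 69.9 and 57.7. Cyp2c6v1, a liver P450 gene, gave 0.189, 0.595 and 2.53. The background share for all of these counts is the 61.0% given above.

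**Figure D2:**
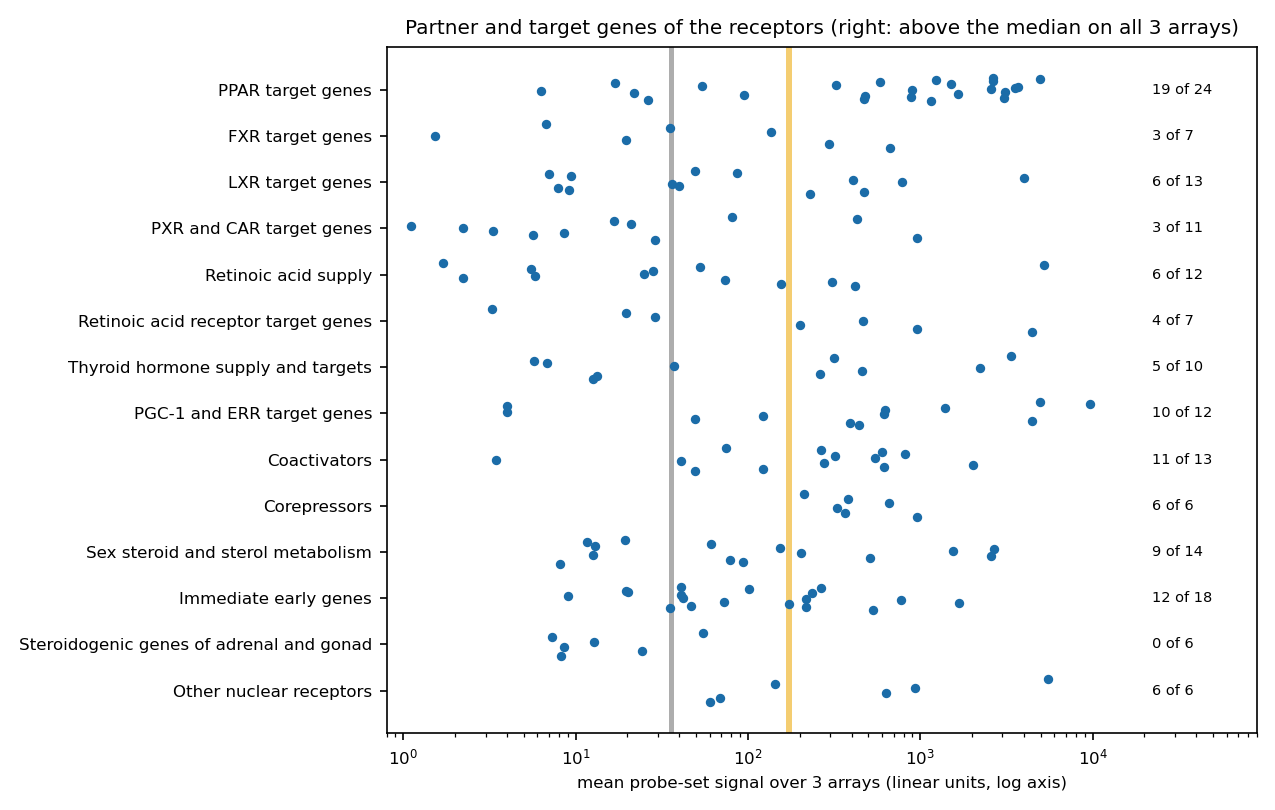
Mean signal over 3 arrays (x axis, linear units on a log axis) of each measured gene in the 14 lists of targets, ligand supply, coregulators and related genes (rows; 1 point per gene), with grey and yellow bands for the array medians and 75th percentiles. The counts at the right are members above the median on all 3 arrays: 19 of 24 PPAR targets and 6 of 6 corepressors, but 3 of 11 PXR and CAR targets and 0 of 6 steroidogenic genes. Of all named genes, 61.0% lay above that line.

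Nr0b2 (SHP) and Nr0b1 (DAX1) lack a DNA-binding domain and act by binding other receptors. In liver, Nr0b2 is a target of FXR and carries sites for Nr5a2 (LRH-1), an orphan receptor of liver, pancreas and ovary. Nr0b2 gave 19.5, 22.2 and 16.8, below the median on every array, while Nr1h4 lay far above it. All 3 probe sets of Nr5a2 lay below the median, with signals between 0.666 and 12.0. Nr0b1 gave 1.04, 11.0 and 5.45. The bases just before the RefSeq start of Nr0b2 (GRCr8, chr5:151063010-151063159, plus strand) are shown 5′ to 3′ because Nr0b2 is known in liver as a target of both Nr1h4 and Nr5a2. Capitals mark TCAAGG, the letters that begin the site of receptors binding DNA as single molecules, such as the NR5A and estrogen-related receptors, searched on both strands.
Nr0b2 promoter: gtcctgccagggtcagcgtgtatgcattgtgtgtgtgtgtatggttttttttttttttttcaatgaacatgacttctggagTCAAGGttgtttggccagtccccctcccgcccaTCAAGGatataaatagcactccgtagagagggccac
The motif stood at positions -69 to -64 and -36 to -31 from the start. It was found in 14.8% of 33469 RefSeq promoter windows of 250 bases before and 50 after the start, and in 5 of the 34 receptor genes that had a window. The general receptor core AGGTCA, which overlaps it in the joined form, was found in 16.2% of windows and in 4 of the 34 genes, Nr0b2 not among them. A match of these letters describes the window and does not show binding.

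Retinoic acid receptors carry the vitamin A signal. Rara gave 64.04, 67.6 and 77.4 and Rarb gave 202, 193 and 209, both above the median on every array and Rarb above the 75th percentile. Rarg gave 20.6, 35.7 and 19.7, below the median on every array. Rarb is itself a classic retinoic acid target, as is Cyp26a1, the enzyme that degrades retinoic acid. Both elements are shown 5′ to 3′ because they hold a direct repeat of GTTCA with 6 bases between, searched on both strands, whose repeated letters are in capitals.
Rarb element: gcccgggaaggGTTCAccgaaaGTTCActc
Cyp26a1 promoter: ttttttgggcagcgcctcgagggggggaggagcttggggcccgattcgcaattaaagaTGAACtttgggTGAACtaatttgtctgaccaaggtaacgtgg
The Rarb stretch lies at chr15:11336406-11336435 and the Cyp26a1 stretch at chr1:244883672-244883771 (RefSeq, GRCr8, plus strands). The repeat stood 26 to 41 bases after the start in Rarb and, on the other strand, at -92 to -77 in Cyp26a1. It was found in 0.418% of the 33469 windows and, among the 34 receptor genes with one, in Rarb only.

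With the same repeat near their starts, the signals of these genes lay on opposite sides of the median: Cyp26a1 gave 17.3, 15.2 and 26.4, on the low side, and was named after its values were seen. Of 7 measured retinoic acid receptor targets, 4 lay above the median on all 3 arrays, Rarb included. Tgm2, a transglutaminase, gave 4176, 3471 and 5793 and Stra6, a retinol carrier, gave 827, 1216 and 829.9, whereas Crabp2, which delivers retinoic acid to its receptors, gave 1.99, 4.22 and 3.58. Of 12 genes of retinoic acid supply, 6 lay above. The background share for both counts is 61.0% of all named genes. Aldh1a1, which makes retinoic acid from retinal, gave 5469, 4901 and 5348 and Rdh10, which makes retinal, gave 296, 303 and 323, while Adh7, an alcohol dehydrogenase gene, gave 1.78, 2.02 and 1.30.

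Both thyroid hormone receptor genes lay above the median on all 3 arrays, against 61.0% of all named genes. Thrb gave 1004, 847 and 783 with its strongest probe set, highest on array 1, and 294, 271 and 275 and 72.9, 66.9 and 77.5 with the next pair. Its weakest gave 28.9, 18.4 and 23.4, below the median. Thra gave 67.7, 82.6 and 118 with one probe set and 39.5, 54.8 and 70.2 with another, both lowest on array 1 and highest on array 3, with ranges of 0.75 and 0.70 log2 units. The remaining Thra probe set gave 8.64, 1.62 and 0.552, below the median.

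Nr1d1, the clock repressor gene that overlaps Thra on the opposite strand, gave 106, 155 and 172 with the same order of arrays. It was named after its values were seen, and whether the overlap contributes was not tested. Of 10 measured genes of thyroid hormone supply and response, 5 lay above the median on all 3 arrays, against 61.0% of all named genes. Crym, which binds the hormone in the cytosol, gave 3784, 3188 and 3179.9 and Klf9, a hormone-induced factor, gave 2304, 2379.8 and 2002. Dio2, a hormone-activating deiodinase, gave 9.65, 5.96 and 1.69.

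Estrogen-related receptors are orphan receptors that drive mitochondrial genes together with PGC-1 coactivators. All 3 of their genes lay above the median on all 3 arrays, against 61.0% of all named genes. Esrrg gave 854, 901 and 806 with its stronger probe set, a range of 0.089 log2 units on the centred scale and 0.16 for plain log2 signals. Its other probe set gave 235, 223 and 352, a range of 0.69 log2 units with array 3 highest. Esrrg was the only one of the 16 genes with several probe sets in which every probe set lay above the median on all 3 arrays. Esrra gave 433, 373 and 364, and Esrrb, known from early embryos and inner ear, gave 58.3, 56.6 and 50.2.

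Of 12 measured genes of the PGC-1 and estrogen-related receptor axis, 10 lay above the median on all 3 arrays, against 61.0% of all named genes. Atp5f1b, the beta subunit of ATP synthase, gave 9969, 9082 and 9805 and Sdhb of complex II gave 4690.03, 4082 and 4524, while Perm1, a muscle regulator, gave 2.16, 1.24 and 8.62. Among general partners, 11 of 13 coactivators and 6 of 6 corepressors lay above the median on all 3 arrays, beside the same 61.0%. The lists share genes, so their counts are not independent. Ppargc1a is among those in both the axis and the coactivator list, and Acadm is in both the axis and the PPAR target list. Ppargc1a (PGC-1 alpha) gave 692, 568 and 591, Ncoa7, a receptor coactivator, gave 1974, 1965 and 2107, and Ncoa2, another, gave 2.65, 2.10 and 5.56. The corepressor scaffold Ncor1 gave 644, 642 and 682.

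All 3 sex steroid receptor genes lay below the median on every array, against 32.1% of all named genes. Esr1 (estrogen receptor alpha) gave 19.9, 7.08 and 10.2, Esr2 (estrogen receptor beta) gave 1.91, 3.12 and 14.8, and Pgr (progesterone receptor) gave 12.4, 9.74 and 4.93. Of 14 measured enzymes of sex steroid and sterol metabolism, 9 lay above the median on all 3 arrays, a share near the 61.0% of all named genes. Hsd17b10, a mitochondrial dehydrogenase, gave 2909, 2257 and 2850.01 and Hsd17b4, a peroxisomal enzyme that also serves fatty acid oxidation, gave 2673, 2316 and 2682, while Sult1e1, the estrogen sulfotransferase, gave 8.76, 8.15 and 7.49.

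The NR4A receptors are immediate early genes, induced within a short time by many stimuli. Nr4a1 gave 88.4, 114 and 141, lowest on array 1 and highest on array 3, with a range of 0.65 log2 units. Nr4a2 lay below the median but above the olfactory yardstick on all 3 arrays, and Nr4a3 gave 6.74, 16.002 and 20.9 with its strongest probe set.

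Other immediate early genes were compared for the order of arrays, a choice made after the values were seen. Of 9 such genes above the median level of all named genes, 6 were lowest on array 1 and highest on array 3, against 10.6% of all named genes above that level. They included Jund (1421, 1654 and 1956) and Klf2 (109, 148 and 264, a range of 1.23 log2 units). Others did not have it: Jun (652, 945 and 713) was highest on array 2, and Zfp36 (641, 502 and 453) was highest on array 1 and lowest on array 3. Fosl1, below the median, gave 5.69, 9.30 and 12.1. The endothelial marker sum of 632, 883 and 1103 was likewise lowest on array 1 and highest on array 3, though its marker Emcn (171, 288 and 228) was highest on array 2. The summed intercalated cell markers (127, 153 and 206) and LXR targets (5747, 6125 and 6594) had that order too. Other sums, such as that of the proximal tubule markers, did not. The part of any cell type or of isolation in the result was not tested. On the centred log2 scale, 7 of the 14 receptors above the median level were lowest on array 1 and highest on array 3, against the same 10.6%. Some of these rest on small differences, Rxrg ranging by 0.10 and Nr2f2 by 0.11 log2 units. Before centring, the signals of Rxrg and Nr1i2 were highest on array 2 and lacked the order. Without centring 5 had it, against 8.62% of named genes above that level, and with quantile normalization 5 had it, against 19.2%. Ppard, Nr1h2, Nr2f6 and Nr4a1 had it under all 3 scalings, though Ppard differed little between arrays 2 and 3 (142.8 and 143.6).

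Of the other orphan receptors, 4 of 9 measured genes lay above the median on all 3 arrays, against 61.0% of all named genes. Nr2f2 (COUP-TFII), known from venous endothelium and mesenchyme as well as epithelia, gave 1414, 1428 and 1459 with its strongest probe set, a range of 0.11 log2 units on the centred scale and 0.045 for plain log2 signals. Its other probe sets gave 205, 279.6 and 288 and 25.8, 33.7 and 31.9. The endothelial marker sum was lowest on array 1, as were both Nr2f2 probe sets above the median, and its part in the Nr2f2 signal was not tested. Nr2f6, a related repressor, gave 478, 491 and 601 with one probe set and 76.9, 78.6 and 139 with another, both of a kind whose suffix marks shared transcripts, and its 3 probe sets without that suffix lay below the median with signals from 1.83 to 29.7.

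Rora, a receptor linked to the clock, gave 195, 145 and 160.2 with one probe set and 10.1, 18.2 and 4.92 with the other. Nr2c1, the testicular receptor 2, gave 65.4, 54.8 and 55.0 with 1 of its 3 probe sets above the median. Rorb of retina and brain (13.2, 1.64 and 0.482), Nr2c2, the partner of Nr2c1 (17.6, 9.76 and 6.60), Nr2f1, or COUP-TFI, (20.2, 0.888 and 5.20) and Nr5a2 lay below the median on every array. Nr5a1, the steroidogenic factor of adrenal and gonad, gave 23.0, 4.72 and 7.69. Above the median on all 3 arrays were 0 of 6 steroidogenic genes, against 61.0% of all named genes. Cyp11a1, which starts steroid synthesis, gave 17.5, 78.9 and 67.3, above the median on 2 arrays, so that 1 of the 6 genes lay above it without array 1.

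**Figure D3:**
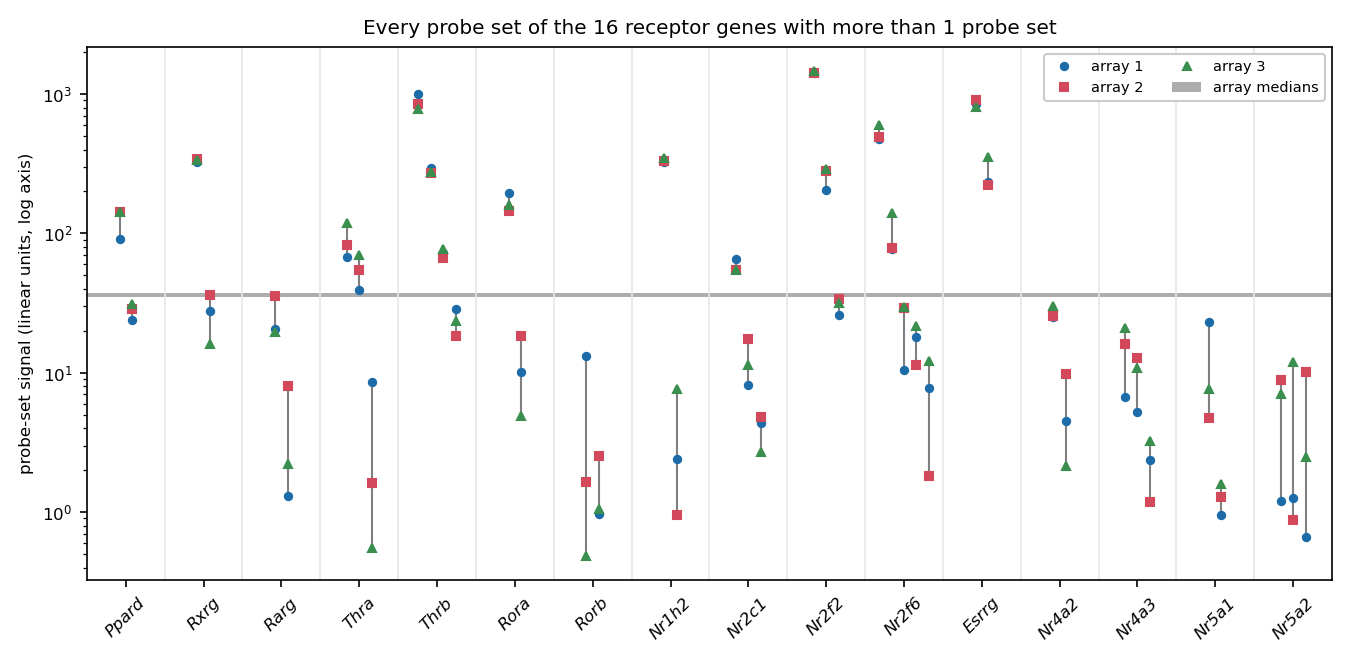
Signal (y axis, linear units on a log axis) of every probe set of the 16 receptor genes that have more than 1 (x axis), with 1 point per array, a line joining the lowest and highest array of a probe set, and a grey band for the array medians. In 9 genes some probe sets exceed the array median on all 3 arrays and others do not, in 6 none does, and in Esrrg both do.

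Of the 16 genes with more than 1 probe set, 9 (56.2%) had some but not all of them above the median on all 3 arrays, against 38.7% of all named genes with several probe sets, not matched for their number. None was above in 6 genes and all were in 1. The 20 genes with a single probe set carry no such check, among them Nr1h4, Nr1h3, Nr1i2, Rxra and Ppara. In the RefSeq annotation, Ppara, Rxrb, Nr1h3, Nr1i2, Nr1i3 and Esrra also overlap another measured gene, so their signals are uncertain where a probe set could read both transcripts. The same holds for Rorb and Thra, which have several probe sets, and Thra overlaps Med24 besides Nr1d1. Over all 62 probe sets, 27 (43.5%) lay above the median on all 3 arrays, against 54.5% of all probe sets of 1 named gene. The ratio of 3′ to 5′ signal of the beta-actin control probe sets was 3.85, 3.28 and 3.66. That of the Gapdh controls was 1.52, 1.52 and 1.40. Whether the distance of a probe set from the 3′ end contributed to disagreement between probe sets or to low signals was not tested.

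Over all 36 receptors the median SD between preparations was 0.21 log2 units, against 0.18 for all named genes. For the 14 receptors above the median level of all named genes it was 0.10, against 0.15 for all named genes above that level. None of the 14 ranged by 1 log2 unit (2-fold), against 1.39% of named genes above that level. Of the 14, 2 receptors, Nr4a1 and Ppard, ranged by 0.5 log2 units or more, against 14.1%, a share near the background. Thra (0.75) and Ppara (0.60), above the array median but not above that level, also ranged by 0.5 log2 units or more. The 15 receptors not above the array median had a median SD of 0.33, and Nr2f1 had the widest range, 1.11 log2 units, at signals of 0.888 to 20.2 (4.51 for plain log2 signals). The median deviation of the receptors from their own means was -0.018, -0.052 and 0.023 log2 units on the 3 arrays, against 0.038, -0.057 and 0.019 for all named genes.

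**Figure D4:**
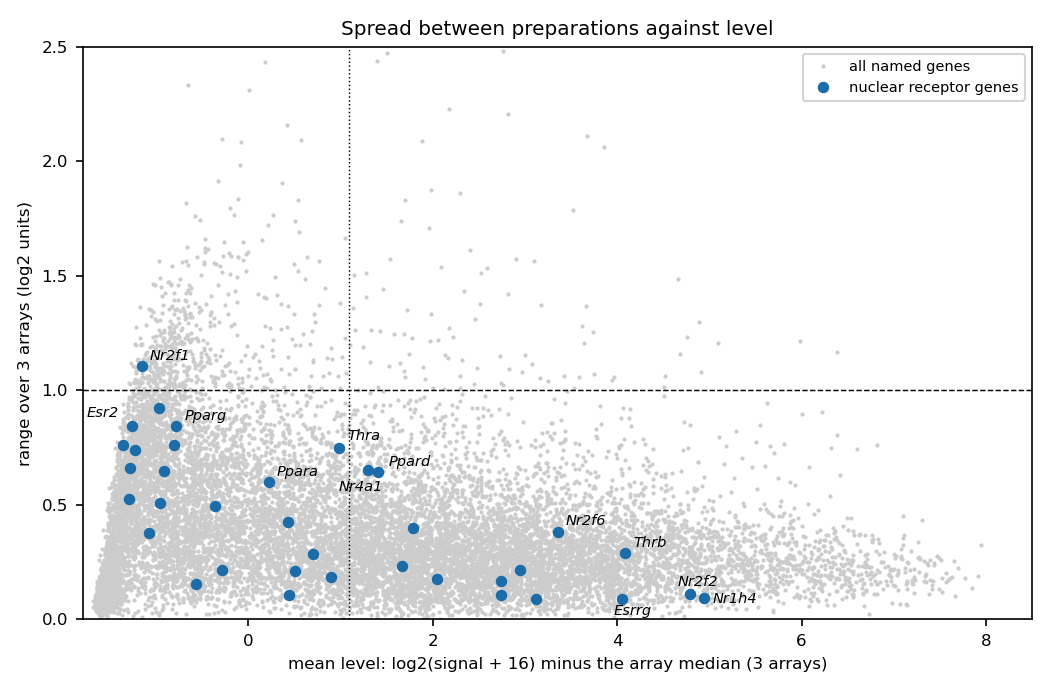
Range over the 3 arrays (y axis, log2 units) against mean level (x axis, log2(signal + 16) minus the array median) for the receptors (blue) and all named genes (grey), with a dashed line at 1 log2 unit and a dotted line at the median level of named genes; 11 named genes lie above the top of the plot. The 14 receptors to the right of the dotted line all lie below the dashed one, and Nr1h4, Nr2f2 and Esrrg lie near 0.1.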

How the data were processed

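Biotin-labelled cRNA was hybridised to 1 array per preparation, per the labels. The deposited table held 1 linear signal intensity per array for each of 31099 probe sets, 57 of them controls; the summarisation software and the scaling between arrays are not given in the sources used here, and no depth is defined for arrays, whose number limits the precision. Symbols came from the platform annotation. Of the probe sets, 20826 named 1 gene, 436 several (left out) and 9780 none; all 62 receptor probe sets matched a RefSeq gene identifier (GRCr8) with 0 changes of symbol. A gene took its probe set of highest mean signal. Summaries used pandas 2.3.3 in Python 3.11.15, with a pseudocount of 16 on the log2 scale. Simulated arrays without noise served to check the computation only, not how the summaries behave on noisy arrays. With 1 group, nothing was tested and no p-value is given.

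The receptors and lists were chosen with earlier results of these data known. The naming rule took all receptors and, of each list, allowed the 3 genes of highest and the 1 of lowest mean signal and genes above the median level ranging 2-fold; not every allowed gene is named. The olfactory list was a symbol pattern and includes Olr1, which is not an olfactory receptor gene. Alternatives were other probe-set choices, normalizations, pseudocounts, lines and filters, and leaving out each array.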

Additional observations from a re-analysis of the deposited data

How the results depend on the processing

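The count of receptors above the array median was 20 with probe sets averaged, which lost Nr2c1, and 20 without suffixed probe sets, which lost Nr2f6. It stayed at 21 under normalization, filtering and arrays left out, but these could not have changed it. Normalization keeps the order of probe sets within an array, and the filter removed only genes under the line. No receptor changed sides between arrays, so leaving out an array left every call as it was. The count was 24 with the line at the 25th percentile. With the line at the 75th percentile it was 10. The count above the olfactory yardstick ran from 21 to 23, and was 22 without Olr1, an alternative chosen after seeing the data. The median percentile moved to 43.1 without suffixed probe sets, where 34 receptors were measured, and to 42.5 without the lowest 20% of genes, where 26 were. No receptor above the median level ranged 2-fold under any alternative, and 2 reached a range of 0.5 log2 units, a threshold also chosen after seeing the data. The median SD of all 36 receptors (0.21 log2 units) was 0.12 without the lowest 20% of genes, 0.25 with a pseudocount of 1, 0.10 with 64, and 0.13 to 0.18 with 1 array left out. The median deviation was -0.076 on array 1 and 0.027 on array 2 with quantile normalization, 0.081 on array 3 without the lowest 20% of genes, -0.021 there without centring and -0.0082 without suffixed probe sets, and, with 1 array left out, -0.033 to -0.0052 on array 1, -0.035 to 0.0052 on array 2 and 0.033 to 0.035 on array 3; the cause was not tested. Averaging probe sets moved the mean signal of 12 receptors by more than their SD. No paired analysis was possible because all 3 arrays formed 1 group.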
